A study of Mus musculus with 10 samples.

Results

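The interferon-induced genes described here are 43 genes of the mouse type I and type II interferon responses, out of the 22553 Ensembl genes in the count table. They were named from a list of known members, although earlier results of these data were known when the list was chosen. All 43 were found by symbol and all 43 passed the filter on low counts, which left 11990 genes for testing. They were measured by poly(A) RNA sequencing of regulatory T cells (Treg), which depend on Foxp3 and hold immune responses in check. YFP-positive Treg came from the pooled lymph nodes and spleens of C57BL/6 female littermates, and each library pooled the cells of 2 to 3 mice. The control (Ctrl) mice were Tfamfl/+Foxp3Yfp-Cre/+ and the knockout (KO) mice Tfamfl/flFoxp3Yfp-Cre/+, with 3 libraries per genotype. Tfam encodes the protein that packages mitochondrial DNA and is needed for its transcription. Cre was driven by Foxp3 in both genotypes, so the Ctrl cells also carry a floxed Tfam allele that Cre can delete. Foxp3 lies on the X chromosome, and heterozygous females therefore keep Treg without Cre, which the sort for YFP left out. The mice's age was not given in the sources used here.

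Type I interferons signal through the receptor chains IFNAR1 and IFNAR2 to a complex that holds STAT2 and IRF9 and binds the interferon-stimulated response element (ISRE) before genes such as Ifit1, Isg15 and Mx1. Interferon gamma signals through IFNGR1 and IFNGR2 to genes with a gamma-activated site (GAS) and to IRF1; the guanylate-binding proteins (Gbp) and immunity-related GTPases (Irg) are classical targets of this arm, although both arms induce many genes in common. In other cell types, disturbed packaging of mitochondrial DNA is known to raise interferon-stimulated genes through the cytosolic DNA sensor cGAS and its adaptor STING. The comparison asked whether the Ifit, Oas and Mx genes and the Gbp and Irg genes differed between KO and Ctrl Treg, over the libraries and within each same-numbered pair.

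The Ctrl libraries held 21419772 to 27490253 gene counts and the KO libraries 19087757 to 23794028 (n = 3 each). Tfam stood at 25.9, 30.6 and 42.4 CPM in the Ctrl libraries 1 to 3, against 15.6, 14.4 and 16.5 CPM in the KO libraries 1 to 3, with no overlap, and no library went against its label; the count also takes in any exons that Cre leaves in place. All 6 Treg markers (Foxp3, Il2ra, Ctla4, Ikzf2, Cd3e and Cd4) were detected in every library, with a summed level of 2265 to 2556 CPM over the Ctrl libraries and 2292 to 2492 CPM over the KO libraries. Markers of red pulp macrophages and other myeloid cells, 15 of 15 detected, summed to 501, 988 and 564 CPM in the Ctrl libraries 1 to 3, against 619, 1381 and 533 CPM in the KO libraries 1 to 3. Both libraries numbered 2 were the highest in them and Ctrl replicate 1 the lowest. Dendritic and plasmacytoid cell markers, 7 genes without the member Bst2, summed to 16.1 to 22.4 CPM over the Ctrl libraries and 14.8 to 22.7 CPM over the KO libraries. Of these sums, Ccr9 alone made 11.0 to 12.4 CPM in Ctrl and 9.06 to 11.9 CPM in KO. Siglech, Xcr1 and Clec9a were each at most 0.64 CPM. The 8 B cell markers summed to 15.7 to 20.6 CPM over the Ctrl libraries and 12.4 to 20.9 CPM over the KO libraries. The 7 CD8 T and NK cell markers summed to 27.1 to 29.2 CPM over the Ctrl libraries and 30.4 to 33.6 CPM over the KO libraries. The sum was higher in every KO than in every Ctrl library, but singly this held only for Prf1 and Klrd1. Prf1 stood at 8.91 to 9.86 CPM in Ctrl and 10.0 to 10.7 CPM in KO, and Klrd1 at most at 0.44 CPM. Cd8a, Cd8b1, Ncr1, Klrb1c and Eomes overlapped between the groups. The part of these markers in the results was not tested. Neutrophil markers, 5 genes, summed to at most 0.307 CPM in any library, and each was at 0 in at least 1 library; 5 erythroid markers summed to 5.07 to 8.37 CPM over the Ctrl libraries and 5.60 to 12.5 CPM over the KO libraries. These are bulk samples, in which fewer cells expressing a gene and less RNA per cell cannot be told apart.

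Ctrl replicate 1 stood apart from the other 5 libraries across the interferon-induced genes. It held the highest level of 41 of the 43 members, whereas it was the highest library for 11.1% of the 11990 tested genes. The exceptions were Ifit2, highest in KO replicate 3, and Ifi44, highest in KO replicate 2. Among the Ctrl libraries alone it was the highest for 42 of 43 members, against 32.3% of all genes. Relative to the mean of the other two Ctrl libraries, the level in Ctrl replicate 1 was between 0.996-fold (Ifit2) and 2.10-fold (Oasl2), with a median of 1.45-fold over the members and 0.993-fold over all tested genes. The median was 1.66-fold for the Ifit, Oas and Mx genes, 1.42-fold for the Gbp genes, 1.45-fold for the Irg genes and 1.14-fold for Irf1 with the antigen processing genes. The 3 KO libraries lay closer together: the SD of the log2 level was larger among Ctrl than among KO libraries for 38 of 43 members, against 55.1% of all tested genes, with median SDs of 0.31 in Ctrl and 0.12 in KO for the members and 0.13 and 0.12 for all genes. Ctrl replicate 1 had the lowest myeloid marker sum of the 6 libraries, as given above, and its dendritic and B cell sums, at 18.5 and 19.9 CPM, lay within the range of the others. It also had the highest Treg sum (2556 CPM). Its neutrophil sum of 0.307 CPM was hardly above that of KO replicate 1 (0.296 CPM), and both were near 0. Its CD8 T and NK and its erythroid sums (27.1 and 5.07 CPM) were the lowest. The part of these differences in the results was not tested. Results that rest on this library are given with and without it. It was singled out after its values for these genes were seen, and leaving out a high Ctrl library raises their fold changes. Values without it therefore cannot decide whether the genes differed between KO and Ctrl.

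**Figure D1:**
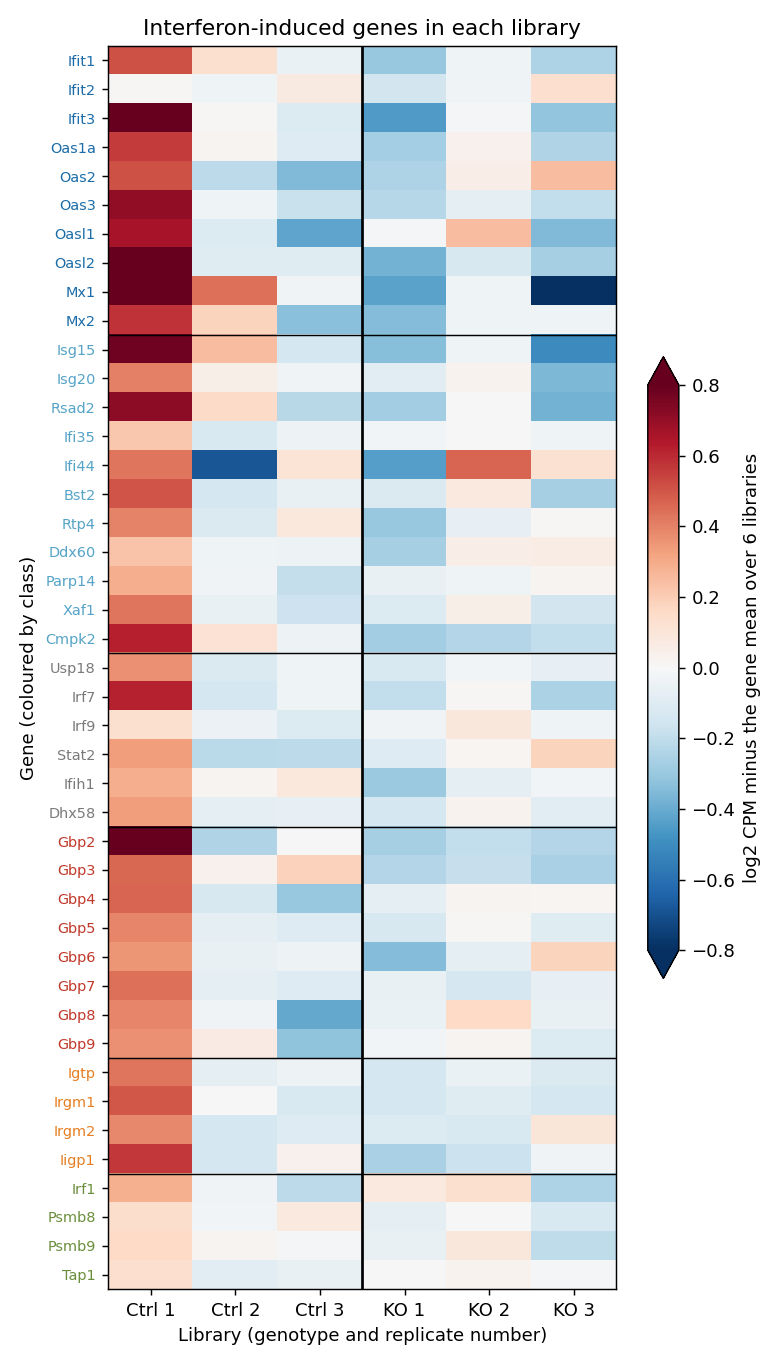
Level of each of the 43 interferon-induced genes (rows, coloured by class) in the 3 Ctrl and 3 KO libraries (columns), as log2 CPM minus the gene's mean over the 6 libraries; the colour scale ends at 0.8 in each direction. Ctrl replicate 1 is the highest library for 41 of 43 genes, against 11.1% of all tested genes. All 3 KO libraries lie below all 3 Ctrl libraries in 5 rows (Mx1, Oasl2, Cmpk2, Ifih1 and Gbp3), against 10.4% of all tested genes.

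No member passed the test of KO against Ctrl over all genes. With edgeR's quasi-likelihood test and Benjamini-Hochberg adjustment over 11990 genes, 0 of 43 members were lower and 0 higher at an adjusted p under 0.05, while 1.39% of the tested genes passed as lower and 0.1% as higher; limma-voom called 0 of 43 in either direction, beside 1.13% and 0.025% of all genes. At an unadjusted p under 0.05, 7 members were lower and 0 higher, beside 7.22% and 5.4% of all genes. The fitted log2 fold change was below 0 for 39 of 43 members, against 51.2% of all genes, with a median of -0.17 against -0.0045. Without Ctrl replicate 1, 23 members were below 0 and 20 above, the median was -0.014, and 0 were called. Of all 12121 genes in that fit, 5976 were below 0 and 6145 above, with a median of 0.0033. At an unadjusted p under 0.05, 3 members were then lower (Mx1, Cmpk2 and Gbp3) and 2 higher (Stat2 and Gbp4). The shares of all genes were 6.93% and 8.64%. Without Ctrl replicate 2, 43 members were below 0 and 0 above, with a median of -0.25. Without Ctrl replicate 3 the numbers were 41 and 2, with a median of -0.28. Over all tested genes, same-numbered libraries deviated together from their group means, so the replicate number was also used as a block. With the block 4 members were lower (Mx1, Isg15, Cmpk2 and Gbp3) and 0 higher, beside 4.39% of all genes called lower and 1.97% higher. In each of these 4, Ctrl replicate 1 was the highest Ctrl library, but KO replicate 1 was not the highest KO library. The pairing seen over all genes was thus not seen for them in pair 1. Over all members the median log2 KO/Ctrl ratios were -0.59, 0.018 and -0.021 in pairs 1 to 3. DESeq2 called 2 members lower without the block and the same 2 with it, Mx1 and Gbp3, beside 2.25% and 2.55% of all genes, and 0 members higher, beside 0.647% and 1.17%. All 3 KO libraries lay below all 3 Ctrl libraries for 5 members (Mx1, Oasl2, Cmpk2, Ifih1 and Gbp3), against 10.4% of all genes, and above them for 0, against 8.63%.

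The promoter sequences of the members were searched for the motifs of both arms. RefSeq promoter windows of build GRCm38.p6, 250 bases before to 50 after a gene's start, were searched for 31 of 43 members (37 windows). Any window of Iigp1 was left out because its chromosome was dropped for the members, although that chromosome stayed among all 32851 windows. A core ISRE, TTTC and TTTC with any 2 bases between them (GAAA, any 2 bases and GAAA on the other strand), was found in windows of 17 of the 31 members, in 45.9% of their windows against 3.44% of all 32851 windows. The GAS motif TTCNNNGAA, which reads the same on both strands, was found for 11 members, in 29.7% of windows against 8.30%. Matches of the 2 motifs overlapped only in the Bst2 window, where 1 ISRE shares bases with the GAS. All 7 Gbp and Irg genes with a searched window had an ISRE match and 4 of the 7 a GAS match. Of the 7 Ifit and Oas genes with a window, 4 had an ISRE and 2 a GAS match. Irf1, Psmb8, Psmb9 and Tap1 had no ISRE match. The 17 members with an ISRE match had a median log2 fold change of -0.28 and a median of 1.46-fold in Ctrl replicate 1 over the other Ctrl libraries; the 14 without one had -0.12 and 1.31-fold. Without Ctrl replicate 1 the medians of the log2 fold change were -0.052 and 0.021. A match is a description of letters, not of binding. Mx1 had no window at hand, and the window of Cmpk2 held neither motif.

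The 250 bases before the start are shown for 6 members, 5′ to 3′ on the gene's strand, with motif matches in capitals: Isg15 and Gbp3 because both were lower in KO with the replicate block, Ifit1 as a type I gene that missed the threshold there (adjusted p = 0.0508), Igtp and Irgm2 because these neighbours carry both motifs, and Stat2 because it has an ISRE match and was higher in KO in pairs 2 and 3. They lie at chr4:156200819-156201068 (- strand), chr19:34640639-34640888 (+ strand), chr3:142559794-142560043 (+ strand), chr11:58199306-58199555 (+ strand), chr11:58214727-58214976 (+ strand) and chr10:128270248-128270497 (+ strand).
Isg15: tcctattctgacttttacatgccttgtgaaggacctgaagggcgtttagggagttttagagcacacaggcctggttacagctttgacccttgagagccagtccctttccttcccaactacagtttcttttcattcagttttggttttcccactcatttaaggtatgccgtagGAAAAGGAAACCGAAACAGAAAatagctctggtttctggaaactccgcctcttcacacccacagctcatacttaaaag
Ifit1: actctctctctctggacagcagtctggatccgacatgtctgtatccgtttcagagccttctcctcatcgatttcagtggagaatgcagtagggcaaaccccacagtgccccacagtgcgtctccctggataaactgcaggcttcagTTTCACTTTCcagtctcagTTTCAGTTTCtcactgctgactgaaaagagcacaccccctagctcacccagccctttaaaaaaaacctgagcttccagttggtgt
Gbp3: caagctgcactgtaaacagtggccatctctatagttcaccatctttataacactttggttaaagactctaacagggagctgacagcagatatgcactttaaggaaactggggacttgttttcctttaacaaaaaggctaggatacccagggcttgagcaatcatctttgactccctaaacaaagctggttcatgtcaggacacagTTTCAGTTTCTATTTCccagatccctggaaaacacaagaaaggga
Igtp: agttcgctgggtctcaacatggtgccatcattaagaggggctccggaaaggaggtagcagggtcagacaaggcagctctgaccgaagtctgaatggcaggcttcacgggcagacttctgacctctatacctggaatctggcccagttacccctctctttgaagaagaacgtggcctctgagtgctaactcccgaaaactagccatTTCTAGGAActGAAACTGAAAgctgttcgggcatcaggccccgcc
Irgm2: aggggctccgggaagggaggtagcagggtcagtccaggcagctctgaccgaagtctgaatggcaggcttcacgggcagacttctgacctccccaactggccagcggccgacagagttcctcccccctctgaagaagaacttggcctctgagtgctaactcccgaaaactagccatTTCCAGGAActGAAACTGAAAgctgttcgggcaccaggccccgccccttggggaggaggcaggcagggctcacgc
Stat2: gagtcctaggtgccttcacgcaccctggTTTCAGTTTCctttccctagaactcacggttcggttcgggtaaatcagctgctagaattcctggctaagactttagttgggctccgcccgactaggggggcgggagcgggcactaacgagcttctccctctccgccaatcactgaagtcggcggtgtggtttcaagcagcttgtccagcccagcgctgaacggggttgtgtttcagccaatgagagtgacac
In Isg15 the capitals are 3 overlapping ISRE matches that begin 78, 72 and 66 bases before the start, and in Gbp3 2 overlapping matches that begin at 45 and 39. Ifit1 has 2 separate ISRE matches, at 104 and 85 bases. In Igtp and in Irgm2 the first capitals are a GAS and the second an ISRE, with 2 bases between them; the GAS begins 45 bases before the start in Igtp and 75 in Irgm2. The Stat2 match lies farther out, at 222 bases. The log2 fold changes of Isg15, Ifit1, Gbp3, Igtp, Irgm2 and Stat2 were -0.63, -0.41, -0.46, -0.23, -0.11 and 0.041.

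The Ifit, Oas and Mx genes are the best known effectors of the type I response. Ifit1, Ifit2 and Ifit3 encode proteins that bind foreign RNA and block its translation; Oas1a, Oas2 and Oas3 encode synthetases of the 2-5A signal for RNA decay; Oasl1 and Oasl2 are their relatives, and Mx1 and Mx2 are dynamin-like GTPases that block viruses. The 10 genes had fitted log2 fold changes from -0.88 (Mx1) to -0.0022 (Oas2), with a median of -0.37 that moved to -0.084 without Ctrl replicate 1. Mx1 stood at 17.98, 13.2 and 9.50 CPM in the Ctrl libraries 1 to 3, against 7.22, 9.45 and 5.40 CPM in the KO libraries 1 to 3. The KO libraries were the 3 lowest, although Ctrl replicate 3 and KO replicate 2 were almost level. The log2 fold change of Mx1 was -0.88 ± 0.26 (SE; 95% interval -1.47 to -0.28; 1.84-fold lower), with an adjusted p of 0.204 in edgeR, 0.00446 with the replicate block, 0.0318 in DESeq2 and 0.00104 in DESeq2 with the block. Within the pairs it was -1.31, -0.48 and -0.80, lower in KO each time, and without Ctrl replicate 1 the fitted value was -0.61 ± 0.25 (adjusted p = 0.304). With the block and without both libraries numbered 1, Mx1 was called at -0.62 (adjusted p = 0.0456). Mx1 of C57BL/6 is known to encode no functional protein.

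Oas3, the member of this class with the most counts, stood at 153, 91.2 and 82.7 CPM in the Ctrl libraries 1 to 3, against 79.6, 88.8 and 81.5 CPM in the KO libraries 1 to 3. Ctrl replicate 1 was 1.76-fold above the mean of the other Ctrl libraries, and the remaining 5 libraries differed little. Its log2 fold change was -0.39 ± 0.21 (adjusted p = 0.48) and -0.049 ± 0.083 without Ctrl replicate 1. Ifit1 (-0.41 ± 0.14), Ifit3 (-0.59 ± 0.25) and Oasl2 (-0.61 ± 0.27) had adjusted p-values of 0.285, 0.384 and 0.402, and their values without Ctrl replicate 1 were -0.22, -0.19 and -0.14. Oasl2 had the largest ratio of all 43 members, 2.10-fold, between Ctrl replicate 1, at 53.7 CPM, and the mean of the other two Ctrl libraries, both at 25.6 CPM. Oas1a (-0.34) and Mx2 (-0.32), also highest in Ctrl replicate 1, had -0.10 and -0.065 without it. Ifit2 was the exception among the Ifit genes: it stood at 60.3, 58.3 and 62.8 CPM in the Ctrl libraries 1 to 3, against 54.0, 58.7 and 65.6 CPM in the KO libraries 1 to 3, all within a narrow range, with a log2 fold change of -0.026 ± 0.082 (95% interval -0.21 to 0.16).

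Oas2, singled out after its values were seen, went the other way once Ctrl replicate 1 was set aside. Its levels were 47.2, 28.7 and 25.97 CPM in the Ctrl libraries 1 to 3, against 28.0, 34.5 and 39.5 CPM in the KO libraries 1 to 3. KO replicates 2 and 3 lay above their Ctrl partners and KO replicate 1 below, with pair values of -0.75, 0.26 and 0.60. The log2 fold change was -0.0022 ± 0.22 with all libraries (adjusted p = 0.998; 95% interval -0.51 to 0.50), 0.32 ± 0.15 without Ctrl replicate 1 (adjusted p = 0.353), and 0.45 with the block and without both libraries numbered 1 (adjusted p = 0.0297). Oasl1 had -0.13 ± 0.27 with all libraries and 0.25 without Ctrl replicate 1.

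**Figure D2:**
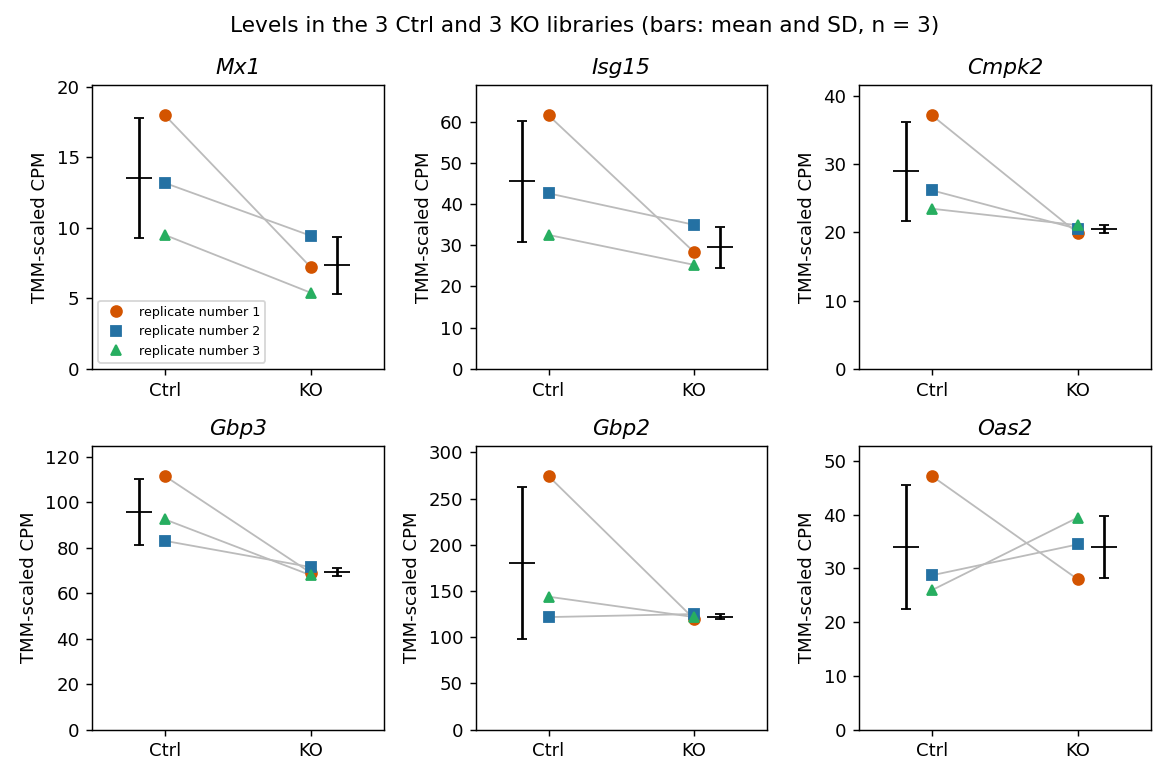
TMM-scaled CPM of 6 members in each Ctrl and KO library, with grey lines joining same-numbered libraries and black bars for the mean and SD (n = 3). Mx1, Isg15, Cmpk2 and Gbp3 are lower in KO in all 3 pairs. Gbp2 overlaps between the groups, with Ctrl replicate 1 far above the rest at 274 CPM. Oas2 is lower in KO in pair 1 and higher in pairs 2 and 3.

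The other antiviral effectors are 11 genes with varied actions. Isg15 encodes a ubiquitin-like modifier, Isg20 an RNA exonuclease, Rsad2 the enzyme viperin, Cmpk2 a mitochondrial nucleotide kinase, Bst2 the virus tether tetherin, Parp14 an ADP-ribosyltransferase, Ddx60 a helicase, and Xaf1 a proapoptotic protein; Ifi35, Ifi44 and Rtp4 are further induced genes. The class had a median log2 fold change of -0.23 (0.0069 without Ctrl replicate 1), 10 of 11 were below 0, and 0 were called. Isg15 stood at 61.5, 42.6 and 32.5 CPM in the Ctrl libraries 1 to 3, against 28.3, 35.0 and 25.2 CPM in the KO libraries 1 to 3. Each KO library lay below its Ctrl partner, but KO replicate 2 was above Ctrl replicate 3, so the groups overlapped. Its log2 fold change was -0.63 ± 0.22 (95% interval -1.12 to -0.13; adjusted p = 0.285), and it was called once edgeR used the block (adjusted p = 0.0188); in DESeq2 it was not, either with the block (0.27) or without it (0.0688). The pair values were -1.12, -0.28 and -0.36, and the value without Ctrl replicate 1 was -0.33 ± 0.17 (adjusted p = 0.391).

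Cmpk2 stood at 37.1, 26.1 and 23.5 CPM in the Ctrl libraries 1 to 3, against 19.9, 20.5 and 21.0 CPM in the KO libraries 1 to 3. The KO libraries were nearly identical and all below the Ctrl libraries. The log2 fold change was -0.50 ± 0.16 (95% interval -0.86 to -0.13; adjusted p = 0.241), called with the block in edgeR (0.0367) but not in DESeq2 with the block (0.0528), and -0.26 ± 0.095 without Ctrl replicate 1 (adjusted p = 0.256). Rsad2, its neighbour in the genome annotation with no protein-coding gene between them, had -0.48 ± 0.23 (adjusted p = 0.449; -0.17 without Ctrl replicate 1). Parp14, with the most counts of the class, stood at 412, 329.6 and 295 CPM in the Ctrl libraries 1 to 3, against 324, 329 and 342 CPM in the KO libraries 1 to 3. Outside Ctrl replicate 1 its levels did not separate by genotype, and the log2 fold change was -0.060 ± 0.11 (95% interval -0.32 to 0.20). Isg20 (-0.28), Rtp4 (-0.25), Bst2 (-0.23), Xaf1 (-0.16), Ddx60 (-0.10) and Ifi35 (-0.046) had adjusted p-values between 0.43 and 0.876; without Ctrl replicate 1 they ran from -0.13 (Isg20) to 0.074 (Ifi35). Bst2 is also a marker of plasmacytoid dendritic cells, whose marker sums are given above; their part in its value was not tested. Ifi44, with the fewest counts of all members (25 to 64 per library), had 0.064 ± 0.34 with a 95% interval of -0.71 to 0.84.

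The sensors and regulators of the type I arm are 6 genes. Irf9 and Stat2 encode DNA-binding and transactivating parts of the complex that binds the ISRE, Irf7 the amplifying transcription factor, Usp18 the feedback inhibitor that also removes ISG15, Ifih1 the RNA sensor MDA5 and Dhx58 the related LGP2. Their median was -0.15 (0.018 without Ctrl replicate 1) and 0 were called. Ifih1 had the smallest p of the class and stood at 86.0, 71.2 and 74.6 CPM in the Ctrl libraries 1 to 3, against 57.0, 66.6 and 69.1 CPM in the KO libraries 1 to 3. The KO libraries were the 3 lowest, and the log2 fold change was -0.27 ± 0.098 (95% interval -0.49 to -0.043; adjusted p = 0.309; 0.0937 with the block; -0.17 ± 0.093 without Ctrl replicate 1). Irf9 had the most counts and stood at 222, 197 and 188 CPM in the Ctrl libraries 1 to 3, against 199, 216 and 198 CPM in the KO libraries 1 to 3. Its groups overlapped, with 0.016 ± 0.078 (95% interval -0.16 to 0.19). Irf7 (-0.33 ± 0.18), Usp18 (-0.16 ± 0.12) and Dhx58 (-0.14 ± 0.12) moved to -0.043, 0.017 and 0.019 without Ctrl replicate 1. Stat2, singled out after its values were seen, had 0.041 ± 0.15 (adjusted p = 0.945) and pair values of -0.44, 0.23 and 0.39; with the block and without both libraries numbered 1 it was called higher, at 0.32 (adjusted p = 0.041). In that fit 2 members were higher (Oas2 and Stat2) and 2 lower (Mx1 and Gbp3), beside 1.71% and 2.8% of all genes. Pair 1 held Ctrl replicate 1, already seen to be high for Oas2 and Stat2, so its omission raises their values. The higher calls therefore cannot decide whether these genes rose in KO.

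The guanylate-binding proteins are large GTPases that assemble on microbes and their vacuoles. The 8 Gbp genes had log2 fold changes from -0.56 (Gbp2) to -0.0050 (Gbp8), with a median of -0.16 (0.027 without Ctrl replicate 1). Their sequences are similar, and how the authors' counting treated reads that match several copies is not given in the sources used here, so single Gbp values are uncertain to that extent. Gbp3 had the smallest p of all 43 members and stood at 112, 83.1 and 92.5 CPM in the Ctrl libraries 1 to 3, against 69.0, 71.5 and 68.0 CPM in the KO libraries 1 to 3. The KO libraries lay within a narrow band below all Ctrl libraries. The log2 fold change was -0.46 ± 0.10 (95% interval -0.70 to -0.23; 1.38-fold lower), with an adjusted p of 0.0884 in edgeR, 0.00565 with the block, 0.00384 in DESeq2 and 0.000688 in DESeq2 with the block. The pair values were -0.69, -0.22 and -0.44, and without Ctrl replicate 1 it was -0.32 ± 0.071 (adjusted p = 0.1); with the block and without both libraries numbered 1 it was called at -0.32 (adjusted p = 0.0424).

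Gbp2, singled out after its values were seen, had the lowest fitted value of the class, but stood at 274, 122 and 144 CPM in the Ctrl libraries 1 to 3, against 119.7, 125 and 122 CPM in the KO libraries 1 to 3. Ctrl replicate 1 was 2.07-fold above the mean of the other Ctrl libraries, while Ctrl replicate 2 lay among the KO libraries. Its log2 fold change was -0.56 ± 0.26 (adjusted p = 0.421) and -0.11 ± 0.079 without Ctrl replicate 1 (adjusted p = 0.569). Gbp4, with the most counts, stood at 251, 167 and 148 CPM in the Ctrl libraries 1 to 3, against 172, 184 and 184 CPM in the KO libraries 1 to 3. In pairs 2 and 3 its KO libraries lay above their Ctrl partners, and the log2 fold change was -0.063 ± 0.17 with all libraries and 0.21 ± 0.082 without Ctrl replicate 1 (adjusted p = 0.282). The Gbp genes lie in separate clusters in the GRCm38.p6 annotation, one with Gbp5, Gbp7, Gbp3, Gbp2b and Gbp2 in a row and one with Gbp8, Gbp9, Gbp4 and Gbp6. The 4 members of the first cluster had a median of -0.33 and pair medians of -0.60, -0.0083 and -0.12; the 4 of the second had -0.080 and -0.49, 0.065 and 0.27. Without Ctrl replicate 1 the medians were -0.044 and 0.15. In pair 3 all 4 genes of the second cluster were higher in KO. This grouping was made after the values were seen and was not tested.

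The immunity-related GTPases act on the membranes of vacuoles that hold microbes: Iigp1 belongs to the effector kind, and Irgm1, Irgm2 and Igtp to the regulatory kind that keeps effectors inactive on the cell's own membranes. The 4 genes had a median of -0.25 (-0.041 without Ctrl replicate 1) and 0 were called. Iigp1, with the smallest p, stood at 92.8, 56.7 and 64.1 CPM in the Ctrl libraries 1 to 3, against 52.4, 55.5 and 61.4 CPM in the KO libraries 1 to 3. Ctrl replicate 1 was the highest and the rest overlapped, with a difference of -0.34 ± 0.17 on the log2 scale (adjusted p = 0.45), or -0.086 ± 0.093 without Ctrl replicate 1. Igtp, with the most counts, stood at 411, 288 and 296 CPM in the Ctrl libraries 1 to 3, against 276, 294 and 281 CPM in the KO libraries 1 to 3. The 5 libraries other than Ctrl replicate 1 lay between 276 and 296 CPM, and the log2 fold change was -0.23 ± 0.13 (-0.030 ± 0.063 without Ctrl replicate 1). Irgm1 (-0.28 ± 0.14) and Irgm2 (-0.11 ± 0.14) moved to -0.052 and 0.096 in the same way.

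Irf1, a transcription factor induced by interferon gamma, and the antigen processing genes Psmb8 and Psmb9 (immunoproteasome subunits) and Tap1 (a chain of the peptide transporter) had the class median nearest to 0, at -0.072 (0.024 without Ctrl replicate 1). Psmb8, with the smallest p, stood at 635, 568 and 608 CPM in the Ctrl libraries 1 to 3, against 548, 574 and 530.0 CPM in the KO libraries 1 to 3, and its log2 fold change was -0.13 ± 0.070 (95% interval -0.29 to 0.029; adjusted p = 0.487; -0.080 without Ctrl replicate 1). Tap1 stood at 774, 659.8 and 677 CPM in the Ctrl libraries 1 to 3, against 705, 719 and 695 CPM in the KO libraries 1 to 3. All KO libraries lay between the Ctrl libraries, with 0.0055 ± 0.078 (95% interval -0.17 to 0.18). Irf1 had -0.034 ± 0.14 and Psmb9 -0.11 ± 0.088 (adjusted p = 0.95 and 0.656). Without Ctrl replicate 1 Tap1, Irf1 and Psmb9 had 0.093, 0.12 and -0.044.

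The contrast between the type I genes and the GTPases was widest in pair 1 and small in pairs 2 and 3, with the GTPase median the higher in each. In the fit over all libraries the Ifit, Oas and Mx genes had a median of -0.37 and the 12 Gbp and Irg GTPases of -0.18, a difference of 0.18. Within pairs 1 to 3 the medians were -0.87, -0.031 and -0.081 for the Ifit, Oas and Mx genes and -0.56, 0.0013 and 0.025 for the GTPases, beside -0.00081, 0.014 and -0.032 for all tested genes. In pair 1 all 43 members were lower in KO, against 50.3% of all genes; in pair 2 it was 18 of 43, against 46.9%, and in pair 3 24 of 43, against 55.7%. Of the Ifit, Oas and Mx genes, 10, 6 and 6 of 10 were lower in KO in pairs 1 to 3, and of the GTPases 12, 6 and 5 of 12. Over all 3 pairs, 13 of 43 members were lower each time, against 23.7% of all genes, and 0 were higher each time, against 21.7%. Without Ctrl replicate 1 the medians were -0.084 and 0.0070, a difference of 0.091, and the GTPase median then lay just above 0. With the replicate block, the number of members called depended on the pair left out: without pair 2, 17 members were lower and 0 higher (beside 4.09% and 1.72% of all genes), without pair 3, 2 were lower (Mx1 and Cmpk2) and 0 higher (beside 2.55% and 0.545%), and without pair 1, 2 were lower and 2 higher, as given above. Isg15 and Cmpk2 were thus not called without pair 1, nor Isg15 and Gbp3 without pair 3. Pair 2 held the most myeloid marker RNA, whose part in the result was not tested. The difference between the classes was not tested, since genes of a class are not replicates.

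**Figure D3:**
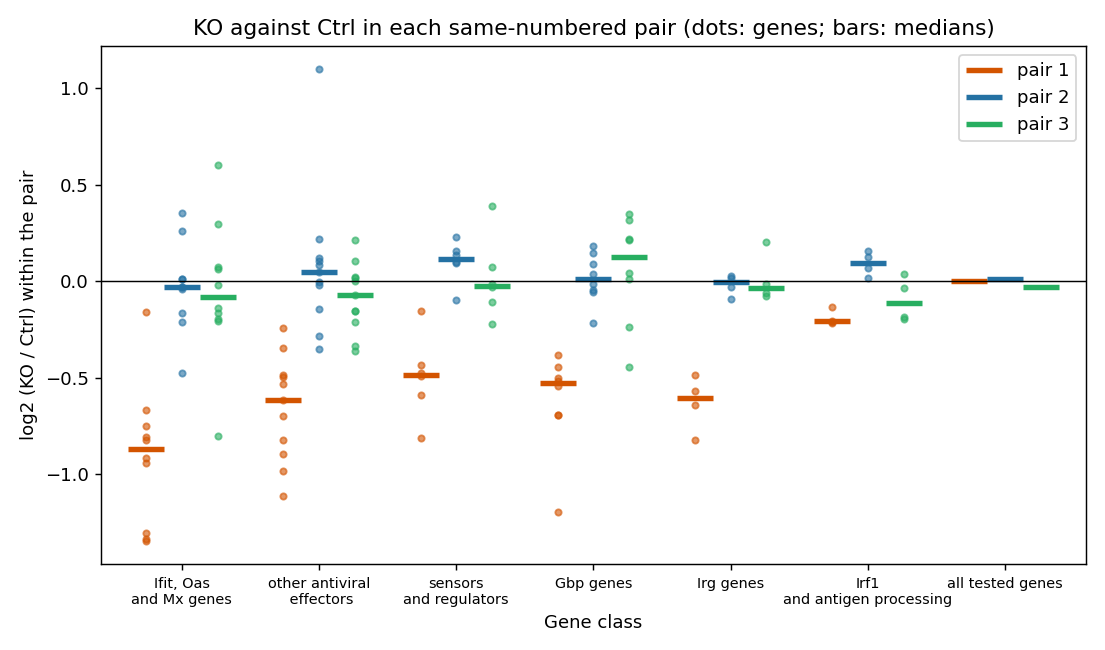
Log2 ratio of KO to Ctrl within each same-numbered pair (prior count of 2), with a dot per gene and a bar for the class median; the last column gives the medians over the 11990 tested genes. All 43 members lie below 0 in pair 1, while in pairs 2 and 3 every class median lies between -0.11 and 0.13.

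**Figure D4:**
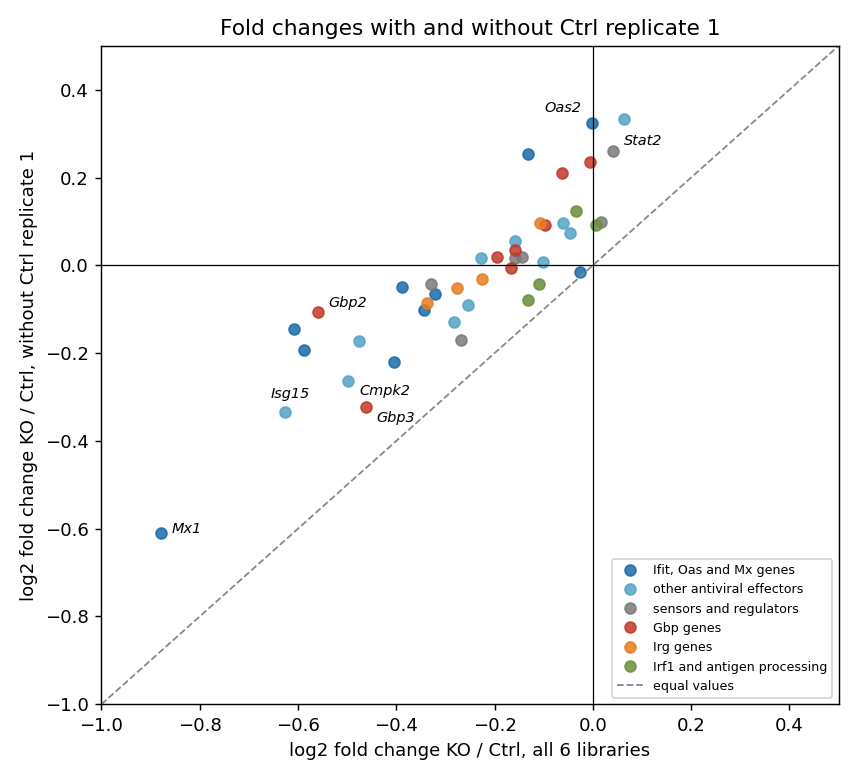
Fitted log2 fold change of each member with all 6 libraries (horizontal axis) and without Ctrl replicate 1 (vertical axis), coloured by class; the dashed line marks equal values. Mx1 (-0.88 and -0.61), Isg15 (-0.63 and -0.33), Gbp3 (-0.46 and -0.32) and Cmpk2 (-0.50 and -0.26) hold the 4 lowest values without Ctrl replicate 1, while Gbp2 moves from -0.56 to -0.11.

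Other genes of the interferon pathway were taken from a list of 101 genes, of which 100 were in the table and 91 were tested. Of the 91, 3 fell and 0 rose beside 1.39% and 0.1% of all genes. With the block 7 fell and 0 rose, when Irf5, Ly6a, Ifi27l2a and Irf4 also passed, beside 4.39% and 1.97%. The list had a median of -0.11 (-0.025 without Ctrl replicate 1), and Ctrl replicate 1 was the highest library for 45 of the 91, against 11.1% of all genes. The type I and type III interferon genes Ifnb1, Ifnk, Ifne, Ifnl2 and Ifnl3 were among the 9 genes under the filter. Gbp2b, a guanylate-binding protein next to Gbp2 and Gbp3, fell 2.39-fold and stood at 24.2, 16.5 and 14.9 CPM in the Ctrl libraries 1 to 3, against 7.90, 7.11 and 8.29 CPM in the KO libraries 1 to 3. All 3 KO libraries lay below all Ctrl libraries, and the log2 fold change was -1.26 ± 0.19 (adjusted p = 0.0155; 0.000192 with the block). Without Ctrl replicate 1 it was -1.004 (adjusted p = 0.0306); the call was lost without KO replicate 1, 2 or 3 (adjusted p = 0.103, 0.0837 and 0.0697).

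Epsti1, an interferon-induced gene, fell 1.32-fold and stood at 183, 178 and 183 CPM in the Ctrl libraries 1 to 3, against 134, 147 and 130.4 CPM in the KO libraries 1 to 3. The Ctrl libraries were level with each other, and the log2 fold change was -0.40 ± 0.065 (adjusted p = 0.0229; 0.00189 with the block). With any 1 library left out the log2 fold change was -0.44 to -0.37 and the call was lost, at adjusted p-values of 0.0539 to 0.171. Ifng, the ligand of the second arm, fell 3.23-fold. It stood at 3.61, 4.73 and 2.26 CPM in the Ctrl libraries 1 to 3, against 1.14, 1.17 and 0.945 CPM in the KO libraries 1 to 3 (log2 fold change -1.69 ± 0.31; adjusted p = 0.0377; 0.000835 with the block). It was highest in Ctrl replicate 2, not in Ctrl replicate 1, and its call held only without Ctrl replicate 3 among the fits that leave out 1 library, although their log2 fold changes were -1.93 to -1.43; limma-voom did not call it (adjusted p = 0.0867). The receptor chain Ifngr1 had -0.21 ± 0.072 (adjusted p = 0.279; 0.0523 with the block) and Ifnar1 0.091 ± 0.058 (adjusted p = 0.562).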

How the data were processed

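Each library is a pool of 2 to 3 mice; the labels do not say whether pools shared a litter or a day, so the p-values cover the variation among these 3 pools per genotype only. The deposited values are raw counts per Ensembl gene, made by the authors with HTSeq per the labels. The aligner HISAT2 stands in the submitters' processing notes beside mm10 and mm9, without saying which was used for these counts; the strand setting and annotation of the counting were not stated in those sources. No pair of libraries of a genotype agreed within sampling noise (chi-square per degree of freedom 8.75 to 27.4). Chromatin accessibility samples of the series were not analysed here.

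Of 22553 IDs, 22522 matched a symbol. Genes were kept with filterByExpr (minimum count 10, minimum total 15), and counts were scaled by TMM and tested with edgeR 4.0.16's quasi-likelihood F test over 11990 genes, with Benjamini-Hochberg adjustment and a threshold of 0.05. CPM were computed from the counts and TMM-scaled library sizes. A level ± value is an SD, and a log2 fold change (KO minus Ctrl) ± value is an SE; intervals are 95%. Pair ratios used a prior count of 2. DESeq2 1.42.0, limma 3.58.1 (voom), other scalings and filters, a replicate block and leaving out each library were the alternatives. Same-numbered libraries correlated in their deviations from the group means (r = 0.30, 0.58 and 0.54 over genes for pairs 1 to 3). The other combinations had -0.55 to 0.021, which is no separate support, because deviations cancel out within a group. The numbers were taken as pairs on the ground of the same-numbered correlations alone. The procedure was tested on simulated data, in which 55.2%, 76.6% and 93.4% of changes of 1.5-, 2- and 4-fold were called in the right direction. The simulation held no pair effect and no library that stood apart. RefSeq promoter windows were searched for the motifs by exact letters.

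The members, classes and gene lists were chosen with earlier results of these data known. The values of 1 gene of the further interferon list are not reported here. All members are named; values in every library are given for members called with or without the block and, in each class, for the member with the smallest p and the one with the most counts. The fits without both libraries of a number and with the block were added after seeing the data.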

Additional observations from a re-analysis of the deposited data

How the results depend on the processing

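The count of members called by edgeR stayed at 0 lower and 0 higher under the other scalings (RLE, library totals, upper quartile), no filter, a filter of 1 CPM in 3 libraries, and each library left out in turn. It was 2 lower with DESeq2, 4 with the replicate block, and 2 with DESeq2 and the replicate block. Fits with the replicate block that left out both libraries of a number, added after seeing the data, called 2 lower and 2 higher without number 1, 17 lower without number 2 and 2 lower without number 3; the cause was not tested. Of all tested genes, 167 were lower and 12 higher; the counts were 264 and 76 with DESeq2, 526 and 236 with the replicate block, 300 and 138 with DESeq2 and the block, and 54 and 0 without both libraries numbered 2. Genes called higher were 7 with library totals and 3 with limma-voom. Leaving out 1 library gave 26 to 166 lower and 0 to 10 higher. The further interferon list had 3 lower, 6 with DESeq2, 7 with the block, 5 lower and 1 higher with DESeq2 and the block, 0 without both libraries numbered 2, and 0 to 2 with 1 library left out. With 1 library left out, the median was -0.53 to -0.084 for the Ifit, Oas and Mx genes and -0.27 to 0.0070 for the GTPases.

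Oas2 turned positive under RLE, DESeq2, limma-voom, the 1 CPM filter, the replicate block and DESeq2 with the block (0.0043, 0.0059, 0.027, 0.014, 0.027 and 0.048), and was 0.45 with the block and without both libraries numbered 1; Gbp8 under the same first 6 settings was 0.0014, 0.0013, 0.029, 0.0098, 0.022 and 0.036. Tap1 was -0.0062 with library totals, and Ifi44, Irf9, Stat2 and Tap1 were -0.42, -0.044, -0.044 and -0.052 without both libraries numbered 2. With 1 library left out, these genes changed sign within their range of log2 fold changes: Bst2 -0.35 to 0.018, Ddx60 -0.16 to 0.0069, Dhx58 -0.21 to 0.019, Gbp4 -0.21 to 0.21, Gbp5 -0.25 to 0.034, Gbp7 -0.29 to 0.019, Gbp8 -0.18 to 0.24, Gbp9 -0.26 to 0.092, Ifi35 -0.11 to 0.074, Ifi44 -0.18 to 0.33, Ifit2 -0.10 to 0.047, Irf1 -0.14 to 0.12, Irf9 -0.033 to 0.10, Irgm2 -0.20 to 0.096, Oas2 -0.17 to 0.32, Oasl1 -0.34 to 0.25, Parp14 -0.16 to 0.097, Stat2 -0.053 to 0.26, Tap1 -0.039 to 0.093, Usp18 -0.25 to 0.017 and Xaf1 -0.27 to 0.056. The 3 pools per genotype limit what can be told: a p above the threshold does not show equal levels.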
